A study of Mus musculus with 6 samples.

Results

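Eph receptors, ephrins, netrins and netrin receptors are proteins of the cell surface and of the extracellular space that steer growing axons and migrating cells. Here 32 genes of these systems were followed in neural cells made from mouse embryonic stem cells. They are 9 EphA receptors, 5 EphB receptors, 5 ephrin-A ligands, 3 ephrin-B ligands, 6 netrin receptors, 2 secreted netrins and 2 netrin-G proteins. Members were chosen by gene symbol from the platform annotation, and a member with several probe sets of 1 symbol was read from its brightest over the 6 arrays. In this way 30 of the 32 members were measured, out of 19938 genes in all. Ephb2 had no probe set under its symbol and Ntng2 had only a probe set shared with other symbols, so neither was analysed here.

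Eph receptors are receptor tyrosine kinases. EphA receptors mainly bind ephrin-A ligands, which are held in the membrane by a lipid anchor, and EphB receptors mainly bind ephrin-B ligands, which cross the membrane and can signal back into the cell that carries them. Netrin-1 is a secreted cue that attracts axons through Dcc and repels them through Unc5 receptors, and in the developing central nervous system it is made by floor plate and by neural progenitors of the ventricular zone.

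All cells came from 1 mouse embryonic stem cell line, CTIP2:GFP knock-in 129SVEV, in which an IRES-GFP reporter was placed behind the coding sequence of Ctip2 (Bcl11b) with the selection cassette kept. They were grown as floating aggregates by the SFEBq method, with a TGF-beta receptor inhibitor (SB-431542) and a WNT inhibitor (WNT-C59) during the first days. On day 11, day 12 and day 13 the aggregates were separated by flow cytometry into CTIP2:GFP+ cells (GFP+) and CTIP2:GFP- cells (GFP-), and RNA of each fraction was hybridised to a GeneChip Mouse Gene 1.0 ST array. Each fraction had 3 arrays, 1 for each day, and both fractions shared the line, the inhibitors and the sort. Ctip2 encodes a zinc finger transcription factor of deep-layer cortical neurons, also made by striatal neurons. Its own transcript had signals of 8.76, 7.91 and 8.54 in GFP+ cells on day 11, day 12 and day 13, against 6.44, 6.27 and 6.88 in GFP- cells, so the sorted label and the transcript ran the same way on every day.

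All values are log2 signals, a difference is GFP+ minus GFP- on the same day, and a mean difference is its mean over the 3 days with the standard error (SE) from limma. The methods state in general that data came from independent experiments, but for the arrays the sources used here do not say whether the days were separate cultures. The p-values of the mean differences therefore cover only variation of the difference among these days. The variance of each gene was set by limma partly from that of all genes (2 residual and 3.80 prior degrees of freedom). Bulk RNA cannot tell fewer cells of a type from less RNA per cell. Array medians were 5.32 to 5.52. The GFP- array of day 13 stood apart, since its signals spread less (SD 1.11, with 1.29 and 1.48 for GFP- cells on day 11 and day 12) and its correlations with the other 5 arrays were 0.863 to 0.927. Genes over 2-fold higher in GFP+ cells made up 1.85% of all genes on day 11, 1.48% on day 12 and 9.18% on day 13, and values without day 13 therefore stand beside the results that rest on it. Of 14 radial glial markers, 8 were called lower in GFP+ cells, with a median difference of -1.32. Of 14 neuronal markers 4 were called higher, with a median of 1.16, and of 11 markers of ventral telencephalon and interneurons 6 were called higher, with a median of 2.27. Of 13 markers of dorsal telencephalon, the labelled identity, 1 was called higher, Bcl11b itself, and their median was -0.23. Markers of endothelium (10 genes), mesenchyme (10), epithelium (10) and pluripotent cells (8) had 0 calls in either direction by limma, and at an unadjusted p under 0.05 only mesenchyme had any gene higher (1), while endothelium and mesenchyme had 1 lower each. The part of the markers in the member differences was not tested.

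Promoter sequence was available from RefSeq (GRCm38.p6) for 28 of the 32 members, all but Ntn1, Dcc, Efnb3 and Unc5d, as windows of 300 bases that run from 250 before to 50 after the transcription start. The 3 windows printed here belong to members at opposite ends of the comparison, namely the EphA and the Unc5 receptor with the largest positive difference and the EphB receptor with the largest negative one. Capitals mark the homeodomain core TAATTA and the GC box GGGCGG on either strand (CCGCCC on the other).
Epha5 (chr5:84417333-84417632, minus strand): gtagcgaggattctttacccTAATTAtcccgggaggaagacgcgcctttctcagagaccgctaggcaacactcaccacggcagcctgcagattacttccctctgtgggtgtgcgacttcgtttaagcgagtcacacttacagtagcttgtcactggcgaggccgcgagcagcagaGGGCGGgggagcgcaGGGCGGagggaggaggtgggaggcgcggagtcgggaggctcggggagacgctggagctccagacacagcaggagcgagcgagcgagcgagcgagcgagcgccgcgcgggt
Unc5c (chr3:141465314-141465613, plus strand): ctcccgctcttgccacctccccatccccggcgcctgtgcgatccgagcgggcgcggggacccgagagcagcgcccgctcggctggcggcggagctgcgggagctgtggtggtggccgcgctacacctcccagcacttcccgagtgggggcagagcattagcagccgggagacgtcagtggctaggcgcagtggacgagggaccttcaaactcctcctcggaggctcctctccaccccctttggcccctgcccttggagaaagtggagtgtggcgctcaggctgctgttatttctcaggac
Ephb4 (chr5:137349859-137350158, plus strand): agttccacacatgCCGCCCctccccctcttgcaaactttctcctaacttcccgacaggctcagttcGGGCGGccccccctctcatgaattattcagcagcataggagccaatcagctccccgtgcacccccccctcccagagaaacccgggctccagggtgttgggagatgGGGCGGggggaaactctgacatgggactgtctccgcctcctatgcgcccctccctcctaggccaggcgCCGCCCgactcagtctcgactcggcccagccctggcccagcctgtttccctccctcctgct
The Epha5 window held 1 TAATTA, starting 230 bases before the transcription start, and 2 GC boxes, the Unc5c window held neither motif, and the Ephb4 window held 4 GC boxes and 0 TAATTA. Over the member windows GGGCGG was found in 21 of 28 (75%), against 35.9% of the 27025 windows of all genes, and TAATTA in 2 of 28 (7.14%, Epha5 and Efna1), against 5.31%. The E-box CANNTG was found in 39.3% of member windows and in 72.1% of all windows. CCAAT, which can share letters with CANNTG and was searched on both strands like the others, was found in 50% of member windows and in 37.9% of all windows. Member windows were rich in G and C, with a median of 65.0% and 23.5 CpG, against 52.7% and 7 CpG over all windows. A match is a description of letters and not a binding site.

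The 2 secreted netrins among the 30 measured members (Ntn1 and Ntn4) and 3 of 4 EphB receptors had lower mean signals in GFP+ cells. Among these EphB receptors, Ephb1 was not lower on day 13, and its second probe set had a mean difference of 0.09. A subset of EphA and netrin receptors and ephrin-A3 had higher mean signals than in GFP- cells. So did Efnb2 and Efnb3, though not on every day. Epha2, Efna1 and Efnb1 were lower in GFP+ cells on all 3 days. By limma with Benjamini-Hochberg adjustment over all genes, 1 member was called lower, Ntn1, where 0.567% of all genes were called lower, and 0 members were called higher, where 0.797% of all genes were. At an unadjusted p under 0.05, 8 members were higher (26.7% of members and 9.58% of all genes) and 3 were lower (10% of members and 5.96% of all genes). A trended and robust fit called 2 members higher (2.75% of all genes) and 2 lower (2.56%), and the methods' t-test called 0 in either direction. By size alone, 2 members were on average over 2-fold higher, Epha5 and Unc5c (1.97% of all genes), and 1 was over 2-fold lower, Ntn1 (1.02% of all genes). The GFP+ arrays all lay above the GFP- arrays for 5 members (16.7%), against 9.05% of all genes, and all lay below them for 6 members (20%), against 7.85% of all genes. These shares of all genes include many dim probe sets, since the mean signal on an array was 6.37 to 6.77 over the members and 5.80 to 5.92 over all genes.

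**Figure D1:**
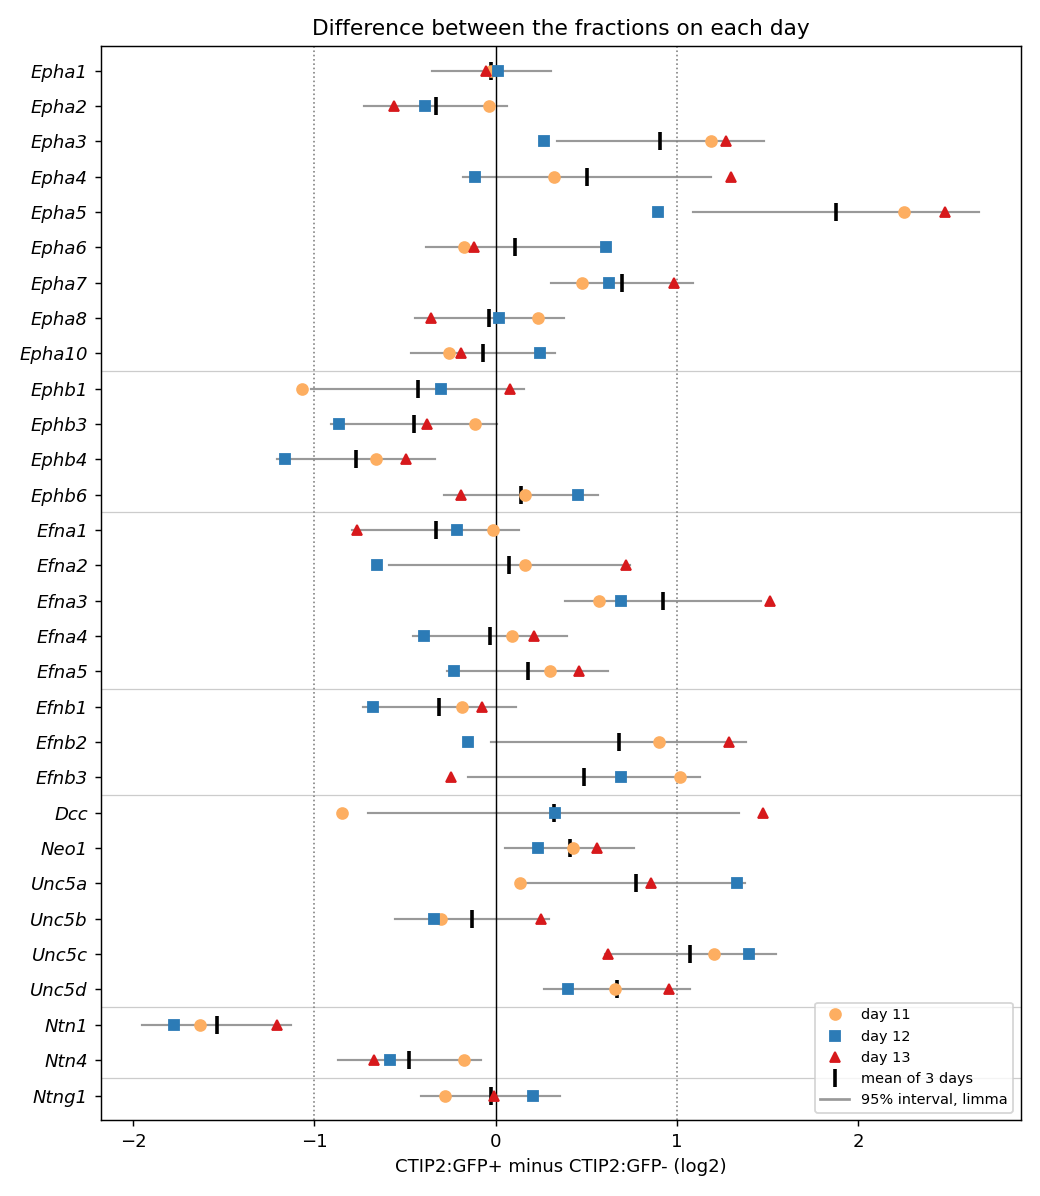
Difference between the fractions on each day for the 30 measured members, as GFP+ minus GFP- log2 signal on the horizontal axis. Points are the 3 days, black ticks their mean and grey lines the 95% interval from limma, and dotted lines mark a 2-fold difference. The interval of Ntn1 lies wholly below -1 and that of Epha5 wholly above 1, while the points of Dcc run from -0.85 to 1.48.

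Ntn1, which encodes netrin-1, was lower in GFP+ cells on every day. Its signals were 5.85, 5.85 and 6.01 in GFP+ cells on day 11, day 12 and day 13, against 7.48, 7.63 and 7.22 in GFP- cells. The highest GFP+ array lay more than 2-fold below the lowest GFP- array, and the replicate spread was small on both sides, with means of 5.90 ± 0.10 and 7.44 ± 0.21 (SD, n = 3 each). The day differences were -1.63, -1.78 and -1.21, and the mean difference was -1.54 (SE 0.17, 95% interval -1.95 to -1.13, adjusted p = 0.028), which is 2.91-fold lower. Ntn1 was the member over 2-fold lower on day 13 (2.29% of all genes), and on day 11 and day 12 it shared this with Ephb1 and with Ephb4 (1.3% and 2.43% of all genes). Without day 13 its difference was -1.71 with an adjusted p of 0.0525, in a fit that called 0 genes in either direction. The same happened after median centring of the arrays (-1.48, adjusted p = 0.119).

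Ntn4, which encodes netrin-4, a basement membrane netrin that binds laminin, had signals of 6.13, 6.04 and 5.77 in GFP+ cells and 6.31, 6.62 and 6.44 in GFP- cells. All GFP+ arrays lay below all GFP- arrays, and the day differences of -0.18, -0.58 and -0.67 had 1 direction. The mean difference of -0.48 (SE 0.16) did not pass the test (adjusted p = 0.235) and was -0.38 without day 13. Ntng1 encodes netrin-G1, a membrane-anchored relative that binds a synaptic adhesion partner and not Dcc. Its fractions overlapped, with signals of 6.31, 6.09 and 6.25 in GFP+ cells and 6.59, 5.88 and 6.27 in GFP- cells, and its mean difference was -0.03.

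The mean differences of the 6 netrin receptors ran from -0.13 for Unc5b to 1.07 for Unc5c. Unc5c, a repulsive netrin receptor, had signals of 7.04, 6.90 and 6.44 in GFP+ cells on day 11, day 12 and day 13, against 5.84, 5.50 and 5.82 in GFP- cells. Every GFP+ array lay above every GFP- array. The mean difference was 1.07 (SE 0.19, 95% interval 0.60 to 1.55), a 2.11-fold higher signal (adjusted p = 0.0665), and without day 13 it was 1.30 (adjusted p = 0.0546).

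Unc5a, another repulsive receptor, had 6.86, 7.46 and 7.03 in GFP+ cells, against 6.72, 6.13 and 6.17 in GFP- cells. The fractions did not overlap, although on day 11 they were 0.13 apart and on day 12 they were 1.33 apart. Its mean difference of 0.78 (SE 0.24, adjusted p = 0.207) was 1.10 without day 11 (adjusted p = 0.0453) and 0.50 without day 12 (adjusted p = 0.291). The fit without day 11 called 381 genes higher, against 159 in the fit on all 3 days. Unc5d had signals of 7.23, 7.53 and 6.82 in GFP+ cells and 6.57, 7.13 and 5.87 in GFP- cells. It was higher in GFP+ cells on every day, by 0.66, 0.40 and 0.96, but the fractions overlapped, both being highest on day 12. Its mean difference was 0.67 (SE 0.16, adjusted p = 0.124), and 0.53 without day 13. The mean over its 2 probe sets was 0.56. Unc5b, known for its role in endothelium, had 5.25, 5.20 and 5.64 in GFP+ cells and 5.55, 5.54 and 5.39 in GFP- cells. It was the netrin receptor with a negative mean difference, -0.13, from day differences of -0.30, -0.34 and 0.25.

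Dcc, the attractive netrin receptor, had the widest range of day differences among the 30 members. Its signals were 8.63, 10.01 and 9.12 in GFP+ cells on day 11, day 12 and day 13, and 9.48, 9.68 and 7.64 in GFP- cells. GFP+ cells were thus below GFP- cells on day 11, close to them on day 12 and above them on day 13, with differences of -0.85, 0.33 and 1.48. The mean difference of 0.32 (SE 0.42, adjusted p = 0.751) lay near that of day 12 and far from those of day 11 and day 13. The difference grew by 1.16 per day, and this change passed the limma test (adjusted p = 0.0482) in 1 member and in 0.0351% of all genes, while 3 members and 5.11% of all genes were past an unadjusted p of 0.05. The fit of this slope has 1 residual degree of freedom, and its SE was 0.27 for Dcc and for every other member alike. The p-value thus follows the size of the slope and does not measure the spread of Dcc itself. The slope passed with the mean of probe sets (adjusted p = 0.0409) but not with either filter on dim genes, with another array scaling or with a robust fit (adjusted p = 0.136 to 0.998). The last step also rests on the GFP- array of day 13. Without that array and with no block for the day, the difference between the fraction means was -0.33. With both arrays of day 13 left out, the mean difference was -0.26. Neo1 encodes neogenin, the Dcc relative that also binds RGM proteins, and it had signals of 8.57, 8.97 and 8.56 in GFP+ cells and 8.14, 8.74 and 8.0 in GFP- cells. It was higher on every day by 0.43, 0.24 and 0.56, with a mean of 0.41 (SE 0.14, adjusted p = 0.255) that was 0.33 without day 13.

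**Figure D2:**
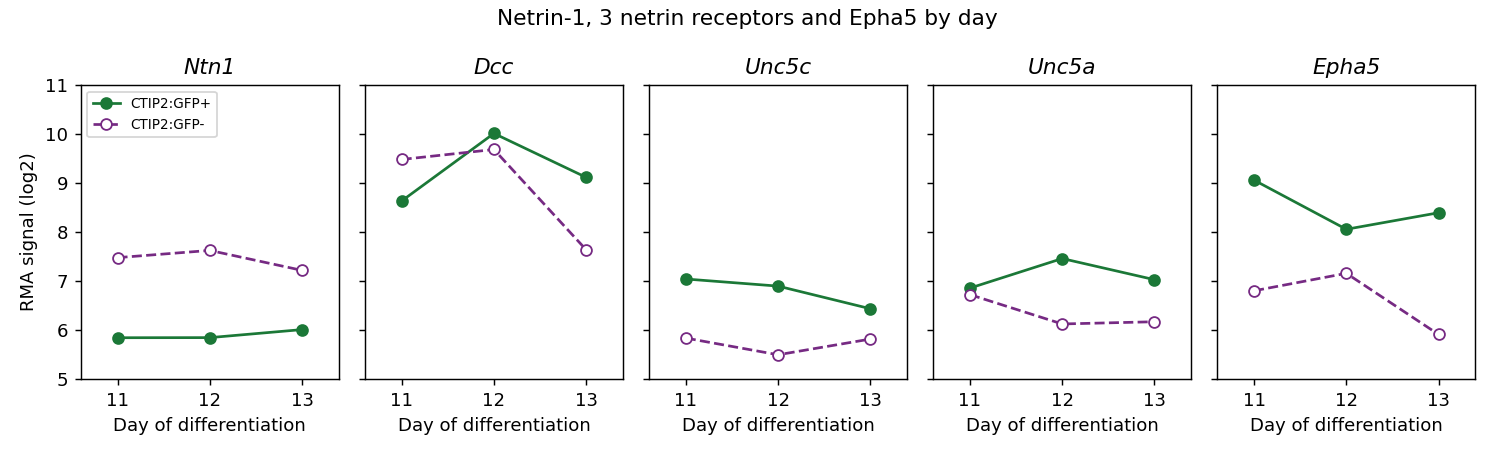
Log2 signals of Ntn1, Dcc, Unc5c, Unc5a and Epha5 against the day of differentiation, with filled circles for GFP+ and open circles for GFP- cells and 1 array per point. The GFP- line of Ntn1 stays above 7 and its GFP+ line near 6, the Dcc lines cross between day 11 and day 12, and the GFP- points of Dcc and Epha5 are lowest on day 13 (7.64 and 5.91).

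Among the EphA receptors, 3 of 9 were higher in GFP+ cells on every day, 1 was lower on every day and 5 had both signs. Epha5, a neuronal receptor of ephrin-A ligands used in topographic mapping, had the largest mean difference among the members in the fit on all 3 days. Its signals were 9.06, 8.06 and 8.39 in GFP+ cells on day 11, day 12 and day 13, against 6.80, 7.16 and 5.91 in GFP- cells. All GFP+ arrays lay above all GFP- arrays, and the difference was largest on day 13 (2.48) and smallest on day 12 (0.90). The mean difference was 1.88 (SE 0.32, 95% interval 1.09 to 2.67), a 3.68-fold higher signal whose adjusted p was 0.0621. It was 1.58 without day 13 (adjusted p = 0.148) and 2.37 without day 12 (adjusted p = 0.00028). The fit without day 12 called 930 genes higher and the fit without day 13 called 0, against 159 in the fit on all 3 days.

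Epha3, a further EphA receptor, had 8.24, 7.92 and 8.03 in GFP+ cells, against 7.05, 7.65 and 6.76 in GFP- cells. The fractions did not overlap but came within 0.27 of each other on day 12, while on day 11 and day 13 they were 1.19 and 1.27 apart. The mean difference was 0.91 (SE 0.23, adjusted p = 0.136), and 0.73 without day 13. Epha7, which marks parts of the developing cortex and thalamus, had 7.06, 8.06 and 6.88 in GFP+ cells and 6.58, 7.43 and 5.89 in GFP- cells. It was higher in GFP+ cells on every day, by 0.48, 0.63 and 0.99, yet the day 12 value of GFP- cells exceeded the GFP+ values of day 11 and day 13. The mean difference was 0.70 (SE 0.16, adjusted p = 0.11), and 0.55 without day 13. Epha4, which binds ephrins of both classes, had 7.98, 7.75 and 8.41 in GFP+ cells and 7.65, 7.87 and 7.11 in GFP- cells. It was over 2-fold higher on day 13 (1.30) but not on day 11 (0.32) or day 12 (-0.11), and its mean difference of 0.50 (adjusted p = 0.478) was 0.11 without day 13.

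The remaining EphA receptors had mean differences of at most 0.33 in size. Epha2, an EphA receptor of epithelial and progenitor cells, had 5.38, 5.12 and 5.08 in GFP+ cells and 5.42, 5.51 and 5.64 in GFP- cells. It lay below GFP- cells on every array, with a mean difference of -0.33 (SE 0.16, adjusted p = 0.418) that was -0.21 without day 13. Epha8 had 5.65, 5.38 and 5.60 in GFP+ cells and 5.42, 5.37 and 5.95 in GFP- cells, and Epha10 had 5.68, 5.80 and 5.59 in GFP+ cells and 5.93, 5.56 and 5.79 in GFP- cells. The fractions overlapped for both. The mean differences of Epha1, Epha6, Epha8 and Epha10 were -0.02, 0.10, -0.04 and -0.07, each from days of both signs, and the signals of Epha1 and Epha6 (4.55 to 5.16) were near the 20th percentile of all signals, 4.65. Epha3 and Epha6 lie near each other in GRCm38.p6, with 4 protein-coding genes between them.

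EphB receptors had mostly negative differences. Ephb4, known as the receptor of ephrin-B2 in veins and also made by progenitors, had signals of 5.77, 5.85 and 6.12 in GFP+ cells on day 11, day 12 and day 13, against 6.43, 7.01 and 6.62 in GFP- cells. All GFP+ arrays lay below all GFP- arrays, with a difference past 2-fold on day 12 (-1.16). The mean difference was -0.77 (SE 0.18, adjusted p = 0.11), and -0.91 without day 13. The 10 endothelial markers had mean signals of 5.08, 4.88 and 5.02 in GFP+ cells and 5.15, 4.92 and 5.40 in GFP- cells. Ephb3, an EphB receptor of commissural axons, had 6.68, 6.71 and 6.78 in GFP+ cells, which hardly varied, and 6.79, 7.57 and 7.15 in GFP- cells. It too was lower on every array, with a mean difference of -0.45 (SE 0.19, adjusted p = 0.328) that was -0.24 without day 12.

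Ephb1, which guides ipsilateral retinal axons, had 6.64, 7.61 and 6.67 in GFP+ cells and 7.70, 7.91 and 6.59 in GFP- cells. It was over 2-fold lower on day 11 (-1.07), less so on day 12 (-0.30) and level on day 13 (0.08), with a mean of -0.43 (adjusted p = 0.479) that was -0.11 without day 11 and -0.68 without day 13. Its second probe set differed by -0.24, 0.54 and -0.03, so the 2 probe sets disagreed on day 12 and the mean over both was -0.17. Ephb6, which lacks kinase activity, had 5.97, 6.26 and 5.91 in GFP+ cells and 5.80, 5.81 and 6.11 in GFP- cells. Its fractions overlapped, with a mean difference of 0.14 (adjusted p = 0.737).

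**Figure D3:**
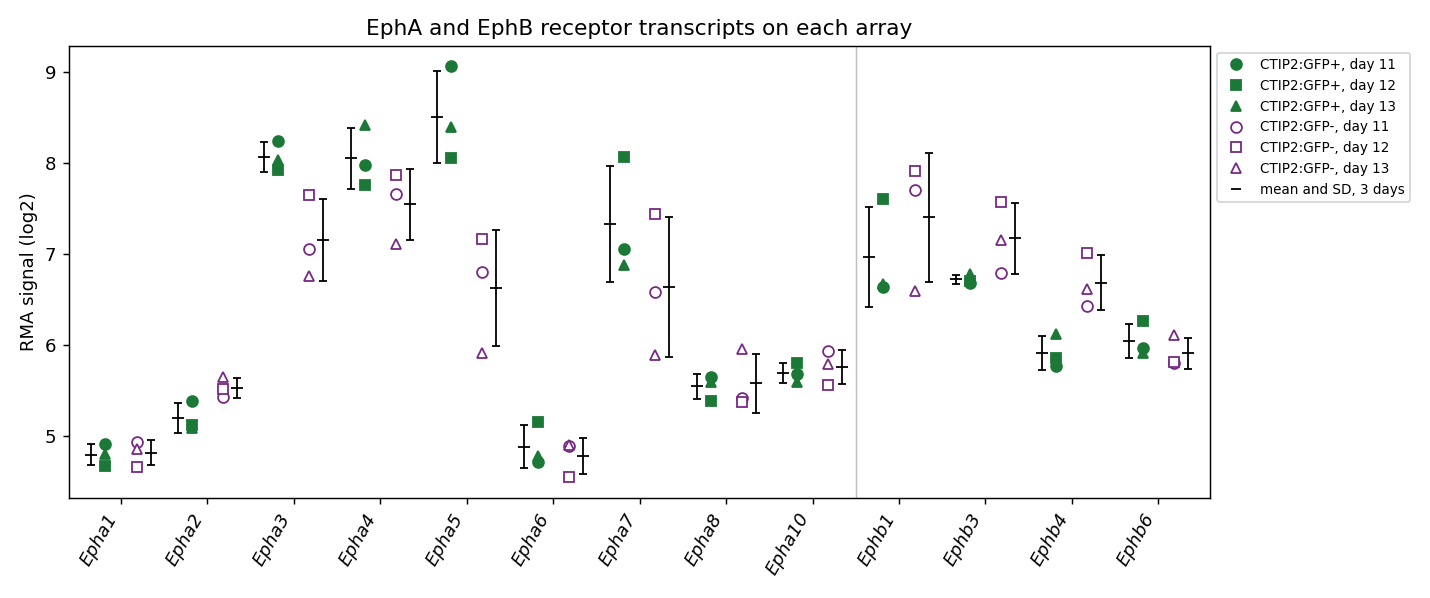
Log2 signals of the 9 EphA and 4 measured EphB receptors on each of the 6 arrays, with GFP+ in filled green left of GFP- in open purple, a symbol for each day and bars for the mean and SD of 3 days. Epha3 and Epha5 have every green symbol above every purple one, and Ephb3 and Ephb4 every green symbol below.

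The ephrin-A ligands held 1 member with a difference in 1 direction on every day and no overlap. Efna3, which encodes ephrin-A3, had signals of 7.35, 7.69 and 7.44 in GFP+ cells on day 11, day 12 and day 13, against 6.78, 7.0 and 5.92 in GFP- cells. The GFP+ arrays were close together, and the low GFP- value of day 13 made the day difference 1.51, against 0.57 and 0.69 on the days before. The mean difference was 0.92 (SE 0.22, 95% interval 0.38 to 1.46, adjusted p = 0.117), and 0.63 without day 13. Efna1 and Efna4, which encode ephrin-A1 and ephrin-A4, are its direct neighbours in GRCm38.p6, with 0 protein-coding genes between Efna3 and each of them. Efna1 had 5.45, 5.23 and 5.28 in GFP+ cells and 5.46, 5.44 and 6.04 in GFP- cells. Efna4 had 6.68, 6.52 and 6.79 in GFP+ cells and 6.59, 6.91 and 6.57 in GFP- cells. Averaged over the days, the difference was -0.33 for Efna1 (adjusted p = 0.491), whose highest signal was in GFP- cells on day 13 and whose difference was -0.11 without that day. It was -0.03 for Efna4, from day differences of 0.09, -0.40 and 0.21, and 0.025 after median centring.

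Efna2 encodes ephrin-A2, which forms gradients in visual maps together with ephrin-A5. It had 8.05, 7.44 and 7.91 in GFP+ cells and 7.89, 8.10 and 7.19 in GFP- cells. The day differences of 0.16, -0.66 and 0.72 leave a mean of 0.08. Efna5 had 6.52, 6.44 and 6.25 in GFP+ cells and 6.22, 6.67 and 5.79 in GFP- cells, with overlapping fractions and a mean difference of 0.18. Neither had 1 direction over the days.

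Of the ephrin-B ligands, Efnb1 was slightly lower in GFP+ cells and the other 2 were higher on 2 of 3 days. Efnb1, which encodes ephrin-B1, a ligand of cortical progenitors, had 7.22, 6.92 and 7.34 in GFP+ cells and 7.41, 7.59 and 7.42 in GFP- cells. Its fractions did not overlap, and the mean difference was -0.31 (SE 0.17, adjusted p = 0.476). Efnb2 had 7.74, 7.34 and 7.56 in GFP+ cells, against 6.84, 7.49 and 6.27 in GFP- cells. It was 0.90 higher on day 11 and 1.29 higher on day 13 but 0.15 lower in GFP+ cells on day 12, with a mean of 0.68 (SE 0.29, adjusted p = 0.342) that was 0.37 without day 13. Efnb3, the midline barrier ligand of the spinal cord, had 7.78, 7.06 and 7.48 in GFP+ cells and 6.76, 6.37 and 7.72 in GFP- cells. It ran against Efnb2 on the last day, with differences of 1.02, 0.69 and -0.24 and a mean of 0.49 (SE 0.26, adjusted p = 0.459) that was 0.22 without day 11 and 0.85 without day 13.

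**Figure D4:**
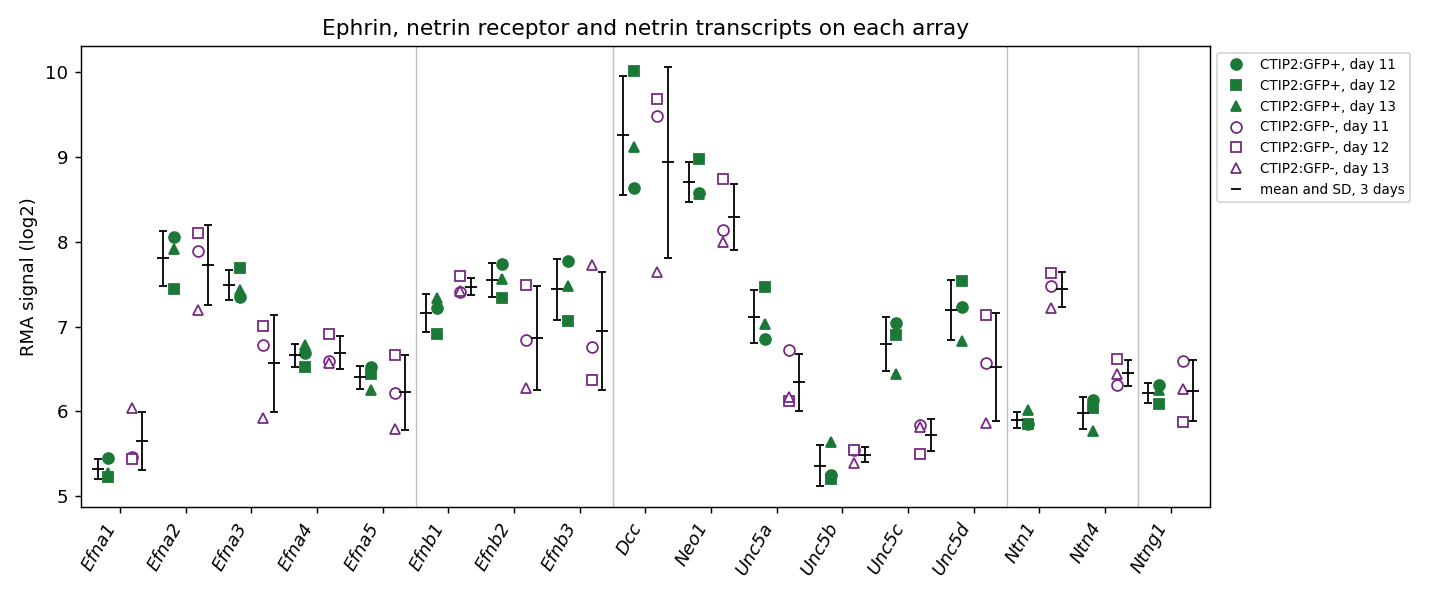
Log2 signals of the 8 ephrins, 6 netrin receptors, 2 secreted netrins and Ntng1 on each of the 6 arrays, with GFP+ in filled green left of GFP- in open purple, a symbol for each day and bars for the mean and SD of 3 days. Every green symbol lies above every purple one for Efna3, Unc5a and Unc5c and below for Efnb1, Ntn1 and Ntn4.

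Receptors and ligands were then set side by side by class. The median difference on day 11, day 12 and day 13 was 0.28, 0.36 and 0.74 for the 6 netrin receptors and -0.91, -1.18 and -0.94 for the 2 secreted netrins. It was 0.23, 0.24 and -0.05 for the 9 EphA receptors, 0.16, -0.23 and 0.46 for the 5 ephrin-A ligands, -0.39, -0.58 and -0.29 for the 4 EphB receptors and 0.90, -0.15 and -0.08 for the 3 ephrin-B ligands. The EphA medians take in dim receptors. With a filter at the median gene, the median of the EphA mean differences was 0.70, against 0.10 without it. The medians of the netrin receptors and of the 2 secreted netrins among the members thus had opposite signs on all 3 days. Single receptors did not all follow, since Dcc was below 0 on day 11 (-0.85) and Unc5b on day 11 and day 12 (-0.30 and -0.34). The EphB median was below 0 on all 3 days, and the other medians had both signs. Ntn3 and Ntn5, further secreted netrins, were listed with the partners of netrin signalling and are not in these medians. Ntn3 differed by 0.03, 0.03 and 0.48 (mean 0.18, adjusted p = 0.654 by limma). Ntn5 differed by -0.24, -0.02 and -0.30 (mean -0.19, adjusted p = 0.606). Over the mean differences, the 19 receptors had a median of 0.14 (range -0.77 to 1.88) and the 11 ligands one of -0.03 (range -1.54 to 0.92), beside -0.05 for all genes. Receptors were higher on all 3 days in 7 cases and lower in 3, and ligands were higher in 1 case and lower in 4. Together these are 8 members higher on all 3 days (26.7%), against 16.9% of all genes, and 7 lower on all 3 days (23.3%), close to the 21.4% of all genes.

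The order of the days was compared in both fractions, and the members' shares were below those of all genes for day 12. The highest of the 3 days was day 12 in both fractions for 6 members (Epha7, Ephb1, Efna3, Dcc, Neo1 and Unc5d), or 20%, against 23.7% of all genes. It was the lowest in both for 5 members (Epha1, Epha8, Efna1, Efnb3 and Ntng1), or 16.7%, against 32.5% of all genes. The GFP- array of day 13 held the lowest of the 6 signals for 12 members (40%), against 31.2% of all genes, and these include Epha3, Epha4, Epha5, Epha7, Efna3, Efnb2 and Dcc. All of these but Epha7 were over 2-fold higher on day 13, and they were the 6 members that were (20%, against 9.18% of all genes). On day 11 the members over 2-fold higher were Epha3, Epha5, Efnb3 and Unc5c (13.3%, against 1.85% of all genes). On day 12 they were Unc5a and Unc5c (6.67%, against 1.48% of all genes), so that no member was over 2-fold higher on all 3 days. The 14 neuronal markers had a mean signal of 8.95 to 9.28 in GFP+ cells, and of 8.28, 8.35 and 7.32 in GFP- cells on day 11, day 12 and day 13. The part of this array's neuronal signal in the member differences was not tested.

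Partners that act downstream of Eph receptors and ephrins were compared in the same fit. Of 33 listed genes 32 were measured, 2 were called higher in GFP+ cells (0.797% of all genes) and 0 lower (0.567%), 11 were higher (9.58%) and 2 lower (5.96%) at an unadjusted p under 0.05, and their median difference was 0.30, beside -0.05 for all genes. The 2 called genes were Anks1b, an adaptor of the family that binds Eph receptors (1.44, SE 0.15, adjusted p = 0.0271), and Chn2, a Rac GTPase-activating protein related to the chimaerin that acts behind Epha4 (1.09, SE 0.15, adjusted p = 0.0437). Anks1b had 7.39, 7.58 and 7.36 in GFP+ cells and 6.08, 6.26 and 5.69 in GFP- cells, and Chn2 had 7.02, 7.32 and 7.20 in GFP+ cells and 6.17, 6.14 and 5.94 in GFP- cells. Both were thus apart on all arrays, and neither passed without day 13, where 0 genes did. By size, 3 of these partners were over 2-fold higher (1.97% of all genes) and 1 was over 2-fold lower (1.02%). Chosen after their values were seen, the others over 2-fold were Chn1 (1.08, adjusted p = 0.0919) and, on the lower side, Grb10 (-1.38, adjusted p = 0.0987). Without day 13 they were at 0.78 and -1.78. Of 28 listed partners of netrin signalling 26 were measured, 0 were called by limma in either direction, 10 were higher (9.58% of all genes) and 3 lower (5.96%) at an unadjusted p under 0.05, and the median difference was 0.21. A trended and robust fit called 4 of them higher (2.75% of all genes) and 3 lower (2.56%), and the methods' t-test called 0. Those over 2-fold, chosen after their values were seen, were Trim67 (1.76), Tubb3 (1.58, also among the 14 neuronal markers), Draxin (1.29) and Flrt2 (1.04) on the higher side, and Rgma (-1.22) and Gpc3 (-1.01) on the lower. Without day 13 there were 3 on the higher and 1 on the lower side, since Flrt2 was then at 0.87 and Gpc3 at -0.91, and without the GFP- array of day 13 there were 2 on each side. Trim67 encodes a ubiquitin ligase that binds Dcc, Draxin a secreted Dcc ligand and Rgma a ligand of neogenin. Rgma had 8.09, 8.07 and 8.14 in GFP+ cells, against 9.16, 9.85 and 8.94 in GFP- cells, with no overlap (adjusted p = 0.0665).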

How the data were processed

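Sorted CTIP2:GFP+ and CTIP2:GFP- cells were measured on 6 arrays, 3 per fraction, grouped by the sorted fraction that the labels give. The deposited values are log2 signals, which the authors made with RMA16 in GeneSpring. Joint normalization, filters and the annotation build were not given in the sources used here. Of 28853 probe sets, 21789 had 1 symbol, 1621 several and 5443 none, and 21698 were matched by Entrez ID to RefSeq genes (GRCm38.p6), with 0 symbols changed. For 999 genes with several probe sets the highest mean was used, without a filter on dim genes. limma 3.58.1 (R 4.3.3) gave the differences, with day as a factor (2 residual degrees of freedom) and eBayes. The threshold was a Benjamini-Hochberg adjusted p of 0.05 over all 19938 genes, and the scripts were tested on simulated data. The study used a 2-fold threshold and its array methods name no test, while its statistics section names Student's test for experiments in general. Pairing comes from the day in the labels, since both fractions of a day came from the same sort, and the deviations of its 2 arrays had correlations of 0.112 (day 11), 0.558 (day 12) and 0.368 (day 13). For GFP+ cells of day 11 a higher value, 0.297, was found with GFP- cells of day 13. Named are all members, Bcl11b, and of each partner list up to 3 genes past the test in each direction, beside those said to be chosen after seeing values. The members and lists were chosen with earlier results of these data known. The number of arrays limits the precision. Alternatives were no block for the day, each day left out, median centring, further quantile normalization, the mean of probe sets, 2 filters on dim genes, a trended and robust eBayes, and the methods' t-test, an unpaired test per gene. A further one had no block for the day and left out the GFP- array of day 13.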

Additional observations from a re-analysis of the deposited data

Results flagged for a closer look

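Efna2, which encodes ephrin-A2, had opposite signs on 2 days, each at least 0.5 in size. GFP+ minus GFP- was -0.66 on day 12 and 0.72 on day 13, and the change of its difference per day did not pass the test (0.28 per day, adjusted p = 0.999). Dcc, the attractive netrin receptor, had differences of -0.85 on day 11 and 1.48 on day 13. The change of its difference, 1.16 per day, was the only one among the 30 members to pass the limma test (adjusted p = 0.0482, with 7 such genes of 19938), and 3 members were past an unadjusted p of 0.05, as were 5.11% of all genes. These comparisons between days rest on 1 array per fraction and day, and the SE of the change per day was the same for every member (0.27).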

How the results depend on the processing

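Of the differences of 30 members under 12 alternatives, 314 kept their direction and side of the threshold, 18 newly passed the test, 3 no longer did and 19 changed sign. With each day left out in turn, the number of members called higher was 0 to 5 (0 in the fit reported), called lower 0 to 1 (1), over 2-fold higher 2 to 4 (2), and the netrin receptor median was 0.43 to 0.79 (0.54). Called higher were Efna3, Epha5 and Unc5a without day 11, and Epha3, Epha5, Efna3, Efnb2 and Unc5c without day 12. Of all 19938 genes, 381 were called higher without day 11, 930 without day 12 and 0 without day 13, against 159 in the fit reported. Called lower were 171, 229 and 0 of all genes, against 113. Over 2-fold higher were 541, 728 and 243 of all genes, against 392. The filter at the 20th percentile called 2 members higher (Epha5 and Unc5c), and 342 of the 16768 genes that it leaves. The filter at the median gene, which leaves 24 members, called 4 higher (also Epha3 and Efna3) and 2 lower (Ntn1 and Ephb4). Of the 9969 genes that it leaves, 787 were called higher and 359 lower. A trended and robust eBayes called 2 higher (Epha5 and Unc5c) and 2 lower (Ntn1 and Ephb4), beside 549 and 510 of all genes. Ntn1 was lost without day 13, after median centring and with the methods' t-test (adjusted p = 0.171), each of which called 0 members lower and 0 genes in all. Partners of Eph receptors and ephrins called higher were 0 to 8 with a day left out (0 to 930 of all genes). After median centring they were 0 (0 of all genes). Further quantile normalization left 1 member over 2-fold higher and moved the EphB median to -0.60, against -0.44, and the filter at the median gene moved the EphA median to 0.70, against 0.10, since it drops 4 dim EphA receptors. The fit with no replicate block changed no member's call, and Ntn1 stayed called (adjusted p = 0.0226). For the change of the difference per day, alternatives chosen after seeing the data called 1 member with the mean of probe sets (Dcc, 1.16 per day, adjusted p = 0.0409) and 0 members otherwise, with Dcc at 1.22 per day after median centring (adjusted p = 0.944), 0.93 after quantile normalization (adjusted p = 0.578) and 1.16 with both filters (adjusted p = 0.136 and 0.835) and the robust fit (adjusted p = 0.998). Changes of sign were seen in members with mean differences of at most 0.32 in size. With a day left out the range was -0.15 to 0.25 for Epha6, -0.17 to 0.13 for Epha8, -0.22 to 0.026 for Epha10, -0.014 to 0.31 for Ephb6, -0.25 to 0.44 for Efna2, -0.15 to 0.15 for Efna4, -0.26 to 0.90 for Dcc and -0.15 to 0.10 for Ntng1. Median centring gave 0.032 for Epha1, 0.020 for Epha8, 0.025 for Efna4 and 0.028 for Ntng1, quantile normalization gave 0.061 for Epha1 and -0.16 for Efna2, and the mean of probe sets gave 0.072 for Ntng1. With no replicate block and without the GFP- array of day 13 the values were 0.15 for Epha8, -0.19 for Efna2, -0.042 for Efna5 and -0.33 for Dcc. The cause was not tested.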
